A study of Saccharomyces cerevisiae with 11 samples.

Results

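Of the 60149 tiles of 200 bp that covered the nuclear genome of budding yeast outside the ribosomal DNA, 6118 (10.2%) lost at least 50% of their relative nucleosome coverage when digestion with micrococcal nuclease was light rather than heavy. They are termed member tiles here. They were chosen on the 4 libraries of the strain without OsTIR1: a tile was kept where log2 of (low-dose mean + 0.1) over (high-dose mean + 0.1) was -1 or less. The values were relative coverage, the number of sequenced fragments over each base divided by the library's nuclear mean without the ribosomal DNA. The members lay almost entirely inside genes. They were scarce at both ends of coding sequences, and 60.3% of those in coding sequences lay before the midpoint. Among 9 gene lists, the members were densest in genes of glycolysis and of other very abundant proteins. Low coverage of the same tiles recurred in 3 of the 7 libraries of the OsTIR1 strain, those with the longest fragments, and did not follow the labelled dose there. By the dose in the names of the deposited files, these 3 were all low-dose libraries and the others all high-dose.

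The 11 libraries came from galactose-grown Saccharomyces cerevisiae of the BY4742 background, and every strain carried Top1 and Top2 each fused to an auxin-inducible degron. yTL1245 had no OsTIR1, the plant F-box protein that auxin needs to direct a degron-tagged protein to destruction, and gave 2 libraries at each nuclease dose. yTL1290 expressed OsTIR1 from the ADH1 promoter and gave 2 untreated libraries at each dose, 1 auxin library at the low dose and 2 at the high dose. Auxin was 500 uM for 60 min, the untreated and treated cells were portions of one culture, all cells were fixed, and the doses were 0.01171875 U and 0.1875 U. Whether auxin removed either topoisomerase cannot be read from coverage. For 4 of the 7 OsTIR1 libraries the name of the deposited file gave the other dose than the label. The untreated high-dose replicate 2 was also named as an auxin library. Groups follow the labels here. The labels do not say that replicates came from separate cultures, so p-values measure only the spread between these libraries. The libraries held 9220720 to 31178329 fragments. Coverage of the median member tile equalled 50.1 to 465 whole fragments, depending on the library (coverage summed over the tile, divided by mean fragment length).

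Micrococcal nuclease cuts the linker DNA between nucleosomes and then trims and destroys what is left exposed. Light digestion therefore releases nucleosomes first from open, accessible chromatin such as promoters, while nucleosomes in arrays that are hard to cut stay in fragments too long for mononucleosome libraries. Heavy digestion brings those out and removes the fragile ones, so the same locus can rank high or low with the extent of digestion alone.

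Without OsTIR1, the median relative coverage of the member tiles was 0.365 and 0.303 in the low-dose libraries and 0.936 and 0.846 in the high-dose libraries. Other tiles with their centre in an open reading frame (ORF tiles, n = 37810) had medians of 0.798 and 0.751 at the low dose, against 1.07 and 1.05 at the high dose. The members were thus low at the light digestion and close to, yet below, the library mean at the heavy one. At both doses their medians were below those of the other ORF tiles, so they were not peaks of protected DNA. Resistance to the nuclease was not measured apart from this ratio of relative coverage. The median of the selecting log2 ratio was -1.16 in the members (interquartile range -1.29 to -1.07) and -0.42 in the other ORF tiles. Because these values chose the tiles, they are a description without a test. Each of the 6118 was lower in both low-dose than in both high-dose libraries, as were 35369 of all 60149 tiles, and 4283 passed the rule in each replicate alone.

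The members were a feature of coding sequence. The centre of 6075 of them (99.3%) lay in an ORF, against 73.0% of all tiles. Among ORF tiles 13.8% were members, and among the 16264 tiles in gaps between ORFs only 43 (0.264%) were. Divergent gaps, which hold promoters of both neighbours, had 15 members of 5271 tiles, tandem gaps 15 of 8236, and convergent gaps, which hold terminators, 7 of 2572. In the 250 bp upstream of a start codon and outside ORFs, 18 of 6448 tiles (0.279%) were members. None of the 99 tiles centred on a tRNA gene was a member, and 1 of the 64 on small nucleolar RNA genes was. Of 11 tiles on small nuclear RNA genes 1 was a member. Annotated antisense RNAs had 16 of 85 (18.8%), above the share of ORF tiles.

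Genes near chromosome ends were not short of members. ORF tiles within 20 kb of an end were members in 261 of 1574 cases (16.6%), against 13.7% of ORF tiles farther in. The share near the ends includes repeated genes with many members, such as YRF1-1 (12 of 27 tiles) and YRF1-3 (12 of 29). Values of such repeats are uncertain, and the share was not computed without them. Over all tiles within 20 kb of an end the share was 8.83%. ORFs that have only a systematic name held fewer, 261 of 3744 tiles (6.97%), than ORFs with a gene name (14.5%). Members were found on every chromosome, from 8.80% of the tiles of chromosome X to 13.9% of those of chromosome I.

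Within an ORF the share of members rose and then fell from start to stop codon. With each ORF cut into 10 equal parts, it was 6.41% in the first part, 15.9% in the second and 21.4% in the fourth, then 11.96% in the eighth and 1.93% in the last. Members lay before the ORF midpoint in 60.3% of cases, against 49.9% of all ORF tiles, so the excess was on the 5′ side. Counted from the start codon, 4.96% of tiles in the first 200 bp were members and 16.6% of those between 200 and 400 bp. The share was 22.2% between 600 and 800 bp, and 6.66% between 2000 and 3000 bp. Members were therefore scarce in the first 200 bp of an ORF and again far downstream. The share also depended on ORF length: it was 2.48% under 300 bp, 16.6% between 2000 and 3000 bp, and 5.42% in ORFs of 6000 bp or more.

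**Figure D1:**
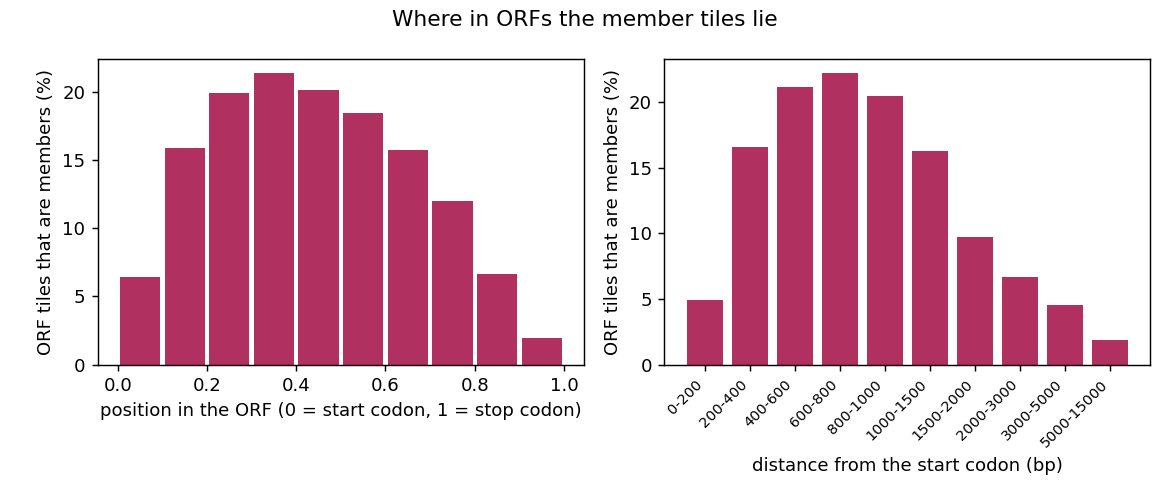
Share of ORF tiles that were member tiles (vertical axes, percent), in 10 equal parts of the ORF from start to stop codon (left) and by distance from the start codon in bp (right). The share was highest in the fourth part (21.4%) and between 600 and 800 bp (22.2%). It was lowest in the last part (1.93%) and from 5000 bp on (1.86%).

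Most members had a member as neighbour. The 6118 tiles formed 3206 runs of adjacent tiles, 1694 of them a single tile, and 4424 members (72.3%) lay in runs of at least 2. The members fell in 2436 of the 5891 ORFs that held a tile centre. Of the 4481 ORFs with at least 4 tiles, 416 had at least 50% members and 2257 had none.

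The longest run, 12 tiles at chrX:399801-402200 (sacCer3), covered most of BBC1, a gene for a protein of cortical actin patches. Mean relative coverage of that run was 0.344 and 0.245 at the low dose, against 0.909 and 0.838 at the high dose without OsTIR1. In the untreated OsTIR1 strain it was 0.376 (low, replicate 1), 0.931 (low, replicate 2), 0.845 (high, replicate 1) and 0.470 (high, replicate 2). With auxin it was 0.938 (low, replicate 1), 0.483 (high, replicate 1) and 0.875 (high, replicate 2). Each labelled dose of the untreated strain thus held 1 low and 1 high library, and the auxin values lay within the untreated range apart from the highest, which was just above it. The first BBC1 tile, centred 110 bp from the start codon, was not a member and had 0.613 and 0.368 at the low dose. The last 4 tiles before the stop codon were not members either, and there the low-dose values rose to 1.27 and 1.13 in the tile nearest the stop codon.

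**Figure D2:**
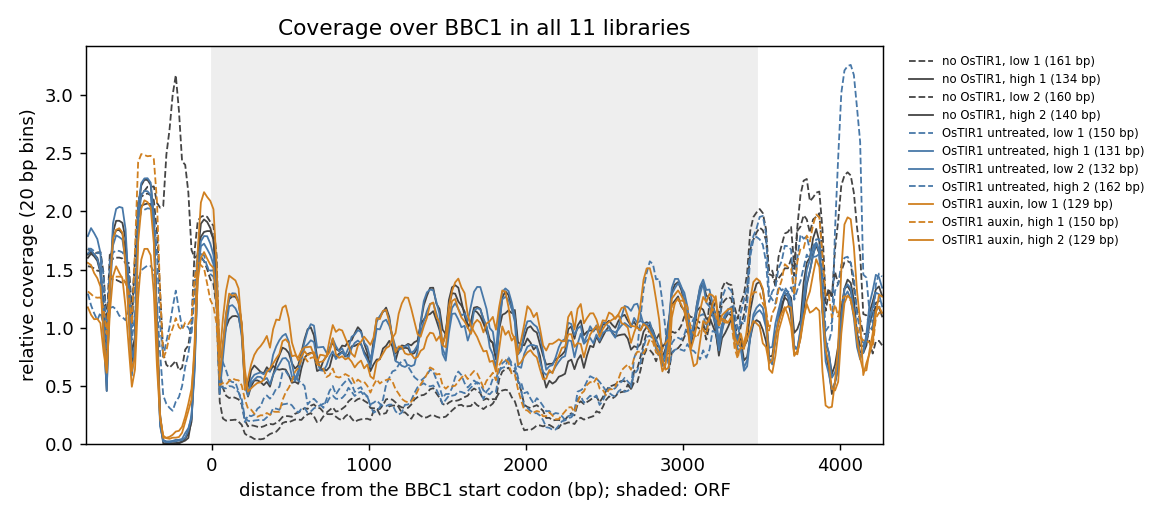
Relative coverage (vertical axis, library mean = 1) in bins of 20 bp along BBC1, against distance from its start codon in bp, for all 11 libraries, with the mean fragment length of each in the legend; the ORF is shaded, and dashed lines mark the 5 libraries with mean fragments of 149.8 bp or more. Over the run of 12 member tiles all dashed lines lie below all solid ones in 110 of 120 bins, and toward the stop codon the dashed lines meet or pass the solid ones.

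Runs of 10 tiles covered EFT1 and EFT2, which both encode translation elongation factor 2, and PYC1, a pyruvate carboxylase. In PYC1 the run mean was 0.343 and 0.325 at the low dose, against 0.900 and 0.903 at the high dose without OsTIR1. EFT1 and EFT2 are near-identical copies, so reads between them may be exchanged and their values are uncertain. Runs of 9 tiles lay in NUP116 and NUP1 (nuclear pore proteins), WHI3 (an RNA-binding regulator of the cell cycle) and PRT1 (a subunit of translation initiation factor 3). In the NUP116 run the untreated OsTIR1 means were 0.286, 0.851, 0.794 and 0.434 (low 1, low 2, high 1, high 2) and the auxin means were 0.926, 0.475 and 0.876 (low 1, high 1, high 2), the same alternation of low and high libraries as in BBC1.

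By number of members, BBC1 (12 of 17 tiles) stood beside the subtelomeric Y′ helicase copies YRF1-1 (12 of 27), YRF1-3 (12 of 29), YRF1-2 (11 of 26), YRF1-6 (10 of 28) and YJL225C (10 of 29), whose repeats make their values uncertain. PFK1, a subunit of phosphofructokinase, and SLA2, an adaptor of endocytosis, each had 11 of 15. COP1 (a coatomer subunit) had 10 of 18, SNT1 (a subunit of the Set3 histone deacetylase complex) 10 of 19, EDE1 (an endocytic scaffold) and MHP1 (a microtubule-associated protein) 10 of 21 each, and RPO21, the largest subunit of RNA polymerase II, 10 of 26. HPF1, a cell wall mannoprotein with internal repeats, had 10 of 14.

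The lowest selecting ratio, -2.37, was at chrIII:212001-212200 in ARE1, a sterol acyltransferase, centred 171 bp from its start codon. Relative coverage there was 0.138 and 0.0607 at the low dose, against 0.943 and 0.922 at the high dose without OsTIR1. In the untreated OsTIR1 libraries it was 0.160 (low 1), 0.961 (low 2), 0.728 (high 1) and 0.311 (high 2), and with auxin it was 0.978 (low 1), 0.227 (high 1) and 0.732 (high 2). The low and high states of this tile were distinct, with no library between 0.311 and 0.728. The next lowest ratios were in NAF1, an assembly factor of small nucleolar ribonucleoproteins (-2.02), the Ty3 retrotransposon ORF YIL082W-A (-2.01, a repeated element), YCR051W (-1.91), MIA40, a mitochondrial import receptor (-1.89), and MTL1, a cell wall sensor (-1.89). TIF3 (a translation initiation factor), NAP1 (a histone chaperone), ILV6 (branched-chain amino acid synthesis) and a neighbouring ARE1 tile followed, at -1.87, -1.86, -1.85 and -1.84. At the threshold of -1 the nearest members lay in ECM21, MDJ1 and ITC1 and the nearest tiles left out lay in STE11, ADE3 and SND3. Only the ratio was alike in these tiles. The ECM21 tile had 0.415 and 0.465 at the low dose, against 0.989 and 0.971 at the high dose, the MDJ1 tile 0.250 and 0.150, then 0.535 and 0.464, and the STE11 tile 0.460 and 0.351, then 0.888 and 0.933.

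Genes of glycolysis and of other very abundant proteins had the densest cover of the 9 lists, though single genes outside them, such as SLA2, were denser. Members made up 52 of the 103 tiles of that list of 17 genes (50.5%, against 13.8% of all ORF tiles), and 13 of the genes had at least 1. The bodies of 12 were at least 50% members: the glycolytic PGI1 (6 of 9 tiles), CDC19 (5 of 7), ENO1 and PGK1 (4 of 6 each), FBA1 (3 of 5), ENO2 (3 of 6), TDH1 (4 of 5) and TDH2 (3 of 5), the fermentative PDC1 (4 of 8) and ADH1 (4 of 5), and TEF1 and TEF2 (5 of 7 each), which encode elongation factor 1 alpha. TDH3 had 2 of 5. The plasma membrane proton pump gene PMA1 had 0 of 13, and TPI1, GPM1 and CCW12 had none, so the list was not uniform. TEF1 with TEF2, and the TDH and ENO genes among themselves, are near-identical in coding sequence, which makes the single copies uncertain.

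Cytosolic ribosomal protein genes had members in 118 of 514 tiles (23.0%) and in 73 of the 135 genes with a tile. In 30 of them at least 50% of the tiles were members, with RPL3 and RPL4B at 4 of 6, RPL5, RPS1A, RPS1B and RPS8B at 3 of 4, and RPP0, RPL4A and RPS6B at 3 of 5. RPL2B, RPS0B and RPS6A had 3 of 6, RPL24B 2 of 2, and RPL11B, RPL15B, RPS27A and RPS8A 2 of 3. RPL26B, RPL2A, RPL8A, RPS2 and RPS24B had 2 of 4, and RPL12A, RPL32, RPP1A, RPP2A, RPP2B, RPS15 and RPS26A 1 of 2. Most of these genes are duplicated, so the split between paralogs is uncertain. The PAU genes, a near-identical and mostly subtelomeric family of cell wall proteins, had 16 of 41 tiles (39.0%) in 13 of 24 genes. That list includes PAU2, PAU5, PAU7, PAU17 and PAU23, which lie farther than 20 kb from a chromosome end and had no members. Flocculin genes had 13 of 96 (13.5%), 7 of them in FLO1, and COS genes 8 of 78 (10.3%), 3 of them in COS5. The COS tiles include those of COS111 (0 of 14), which, unlike the others, is not subtelomeric.

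Other lists held few members. The galactose regulon list, which includes regulator genes such as GAL4, had 3 of 66 tiles (4.55%), 2 in GAL3 and 1 in GAL80. It had none in GAL1, GAL10, GAL7, GAL2, GCY1 or GAL4 (0 of 13 tiles). The genes of meiosis and sporulation, which vegetative cells keep silent, had 7 of 298 (2.35%), in REC102, ZIP2, REC107, SPR3 and RED1. The hexose transporters had 1 of 61 (in HXT3), and the 8 core histone genes 0 of 14. The lists differ in gene length and copy number, and no test of the difference between them was made.

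**Figure D3:**
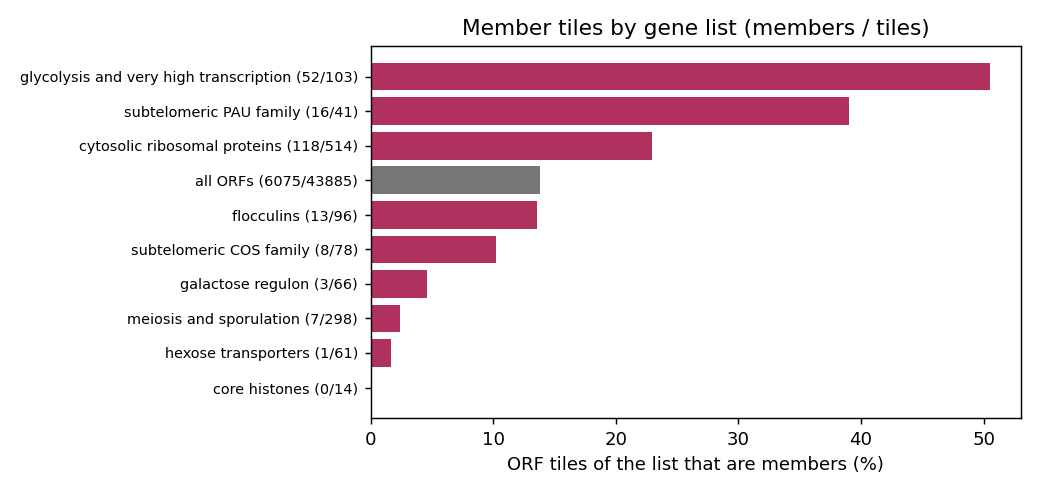
Share of the ORF tiles of each gene list that were member tiles (horizontal axis, percent), with the numbers of members and tiles in parentheses; the grey bar is all ORFs (13.8%). Glycolysis and very high transcription was at 50.5% and the core histones at 0.

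In the OsTIR1 strain, which played no role in choosing the tiles, the untreated replicate 1 libraries, whose labels and file names give the same dose, showed the same contrast as the strain without OsTIR1. The median of the members was 0.401 at the low dose and 0.885 at the high dose, against 0.840 and 1.07 for the other ORF tiles. The log2 ratio of low over high had a median of -0.97 in the members and -0.32 in the other ORF tiles. It was -1 or less in 2713 members (44.3%, against 5.11% of all tiles). These are single libraries, so the difference has no replicate check.

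The replicate 2 libraries ran the other way. The library labelled untreated low replicate 2 had a member median of 0.926, and the library labelled untreated high replicate 2 had 0.514. With auxin the medians were 0.954 (low 1), 0.537 (high 1) and 0.935 (high 2). The 7 libraries thus fell in a low set of 3 (0.401 to 0.537) and a high set of 4 (0.885 to 0.954), with nothing between. The medians of the other ORF tiles fell in the same 2 sets, closer together. They were 0.840 to 0.895 in the 3 libraries and 1.05 to 1.07 in the 4, so the members differed in the size of the drop. Mean fragment length split the same way: 149.8 to 162.2 bp in the 3 low libraries and 129.0 to 132.4 bp in the 4 high ones. So did the dose in the file names, which was the low dose for the 3 low libraries and the high dose for the 4 high ones. In the strain without OsTIR1 mean fragment length was 160.3 and 161.1 bp at the low dose, against 133.6 and 140.3 bp at the high dose. In each low library 51.0% to 66.2% of the members were among the 10% of tiles with the lowest coverage in that library, and in each high library 4.36% to 12.3% did.

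**Figure D4:**
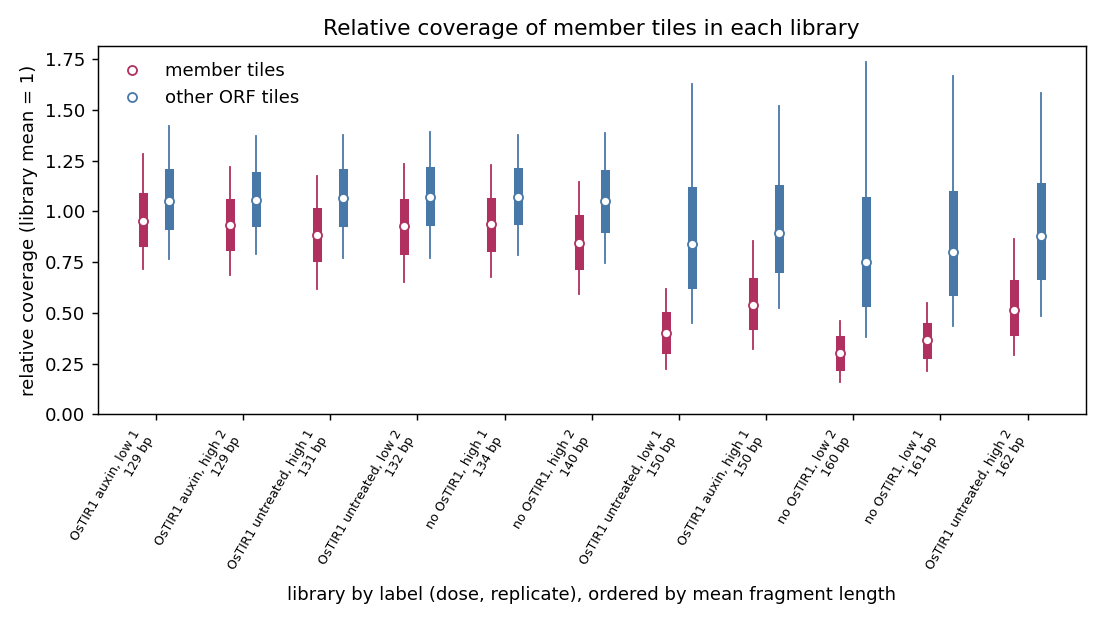
Relative coverage (vertical axis, library mean = 1) of the 6118 member tiles and of the other ORF tiles in each of the 11 libraries, ordered by mean fragment length; circles are medians, thick bars run from the 25th to the 75th and thin lines from the 5th to the 95th percentile of tiles. Member medians are 0.846 to 0.954 in the 6 libraries with mean fragments of up to 140.3 bp and 0.303 to 0.537 in the 5 with longer ones.

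Tested by the labels, the dose made no difference that could be called in the OsTIR1 strain. Each labelled dose held both short- and long-fragment libraries, and 4 of the 7 labelled doses differed from the file names. The test therefore cannot decide whether dose changed the coverage of these tiles, and the dose in the file names was not tested. In limma over all 7 libraries with auxin as a second term, 0 of 60095 tiles passed an adjusted p of 0.05 (0% called, 12 at an unadjusted p under 0.05), and none of the 6118 members did. The median log2 difference of the members, high dose minus low dose, was -0.08 (interquartile range -0.19 to 0.03), and its sign was not stable: it was -0.39 without untreated low replicate 1 and 0.13 without untreated low replicate 2, the extremes when each library was left out in turn. Log2 values here and below are of relative coverage + 0.1 and understate changes of tiles with low coverage.

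The depletion in the 3 long-fragment OsTIR1 libraries was centred on the members and, in the mean profile, reached beyond the 200 bp tile on both sides. Since 72.3% of members lay in runs of at least 2 tiles, this mean does not give the width of a single depletion. Mean coverage at the member centres was 0.398 to 0.550, rose to 0.547 to 0.667 at 200 bp on the 5′ side and 0.504 to 0.640 at 200 bp on the 3′ side, and reached 0.917 to 0.954 at 600 bp on the 5′ side. In the 4 short-fragment libraries it was 0.879 to 0.954 at the centre and stayed between 0.897 and 1.02 at every 200 bp step to 1000 bp on the 5′ side. Recovery was slower toward the 3′ side, where the long-fragment libraries had 0.814 to 0.868 at 600 bp.

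**Figure D5:**
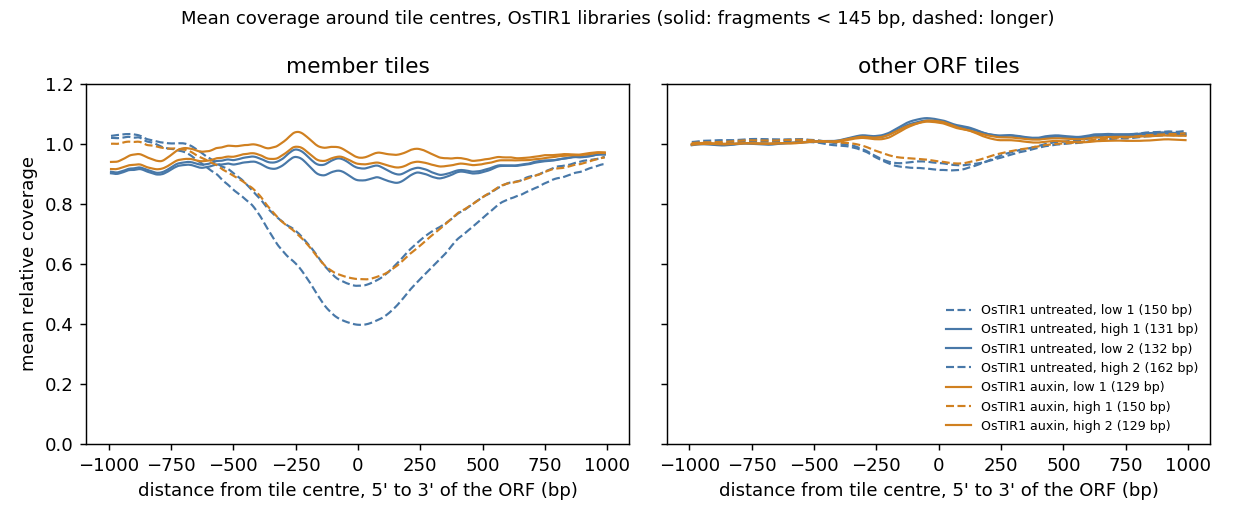
Mean relative coverage (vertical axes) against distance from the tile centre in bp, oriented 5′ to 3′ of the ORF, for member tiles (left) and other ORF tiles (right) in the 7 OsTIR1 libraries; dashed lines are the 3 libraries with mean fragments of 149.8 bp or more. The dashed lines dip to between 0.398 and 0.550 at the member centres, while the solid lines lie between 0.879 and 0.954.

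Promoters of the genes with most members were also lower than those of other genes, in both kinds of library. In the untreated low replicate 1 library the median promoter coverage (250 bp before the start codon) was 1.29 for the 416 ORFs with at least 50% members, 1.36 for 1808 ORFs with some and 1.43 for 2257 ORFs with none. In the untreated high replicate 1 library the medians were 0.710, 0.804 and 0.874 in the same order. That order held in all 11 libraries, so members in a body went with lower coverage of the promoter at both extents of digestion, though the interquartile ranges overlapped.

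Auxin was compared next, as the treatment meant to deplete both topoisomerases in the OsTIR1 strain. With labelled dose as the second term, limma called 0 of 60095 tiles (0% called, 23 at an unadjusted p under 0.05) and 0 members (2 at an unadjusted p under 0.05). The median difference, auxin minus untreated, was 0.26 in the members (interquartile range 0.18 to 0.35) and 0.03 over all tiles. The groups differed in their mix of libraries: 1 of 3 auxin libraries and 2 of 4 untreated ones had long fragments. The member median ranged from 0.06 without untreated low replicate 1 to 0.49 without auxin high replicate 1. With mean fragment length in place of labelled dose the member median was 0.01, and 0 tiles were called.

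Among the 4 short-fragment OsTIR1 libraries, 2 untreated (high 1 and low 2) and 2 with auxin (low 1 and high 2), members were slightly higher with auxin on balance. Their state is the same in label and file name, but the split by fragment length was made from the data and was known from an earlier look at them. The median difference was 0.06 in the 6118 members (interquartile range -0.05 to 0.17), -0.01 in the other ORF tiles and -0.003 over all tiles tested. It was above 0 in 3884 members (63.5%), against 49.2% of all tiles. Both auxin libraries were above both untreated ones in 2126 members (34.7%, against 22.5% of all tiles tested), and both were below in 840 (13.7%, against 23.2%). Fragments were a little shorter with auxin (129.0 and 129.3 bp, against 131.1 and 132.4 bp), and the part of that difference in digestion was not tested.

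Only 3 members passed the adjusted threshold there, all higher with auxin. Over all 59819 tiles tested limma called 120 (0.201%), of which 113 (0.189%) were higher and 7 lower. The share among members was thus below that of all tiles, and the calls are not a result about the members. The members called were tiles of RPL2B and RPS13, which encode proteins of the large and the small ribosomal subunit, and of MSB2, a mucin of the osmosensing pathway.

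The RPS13 tile, chrIV:580001-580200, had relative coverage of 0.703 and 0.640 untreated and 1.17 and 1.18 with auxin. The log2 difference was 0.72 (SE 0.0974, limma adjusted p = 0.0269). The RPL2B tile, chrIX:317601-317800, had 0.542 and 0.527 untreated and 1.17 and 0.907 with auxin, a log2 difference of 0.83 (SE 0.122, limma adjusted p = 0.0428). Its paralog RPL2A is near-identical, so reads may be shared. The MSB2 tile, chrVII:518801-519000, had 0.681 and 0.623 untreated and 1.05 and 1.10 with auxin, a log2 difference of 0.64 (SE 0.0982, limma adjusted p = 0.0493). In these 3 tiles the groups did not overlap. Among the long-fragment libraries the RPS13 tile had 0.317 (untreated low 1), 0.541 (the library labelled untreated high 2) and 0.633 (auxin high 1). In the same order the RPL2B tile had 0.166, 0.348 and 0.426, and the MSB2 tile 0.239, 0.829 and 0.645, so in MSB2 the library labelled untreated high 2 was the highest.

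Of these calls, 2 were lost when a single library was left out, and that of the RPL2B tile was not. Without untreated low replicate 2 the adjusted p was 0.147 for the RPS13 tile and 0.350 for the MSB2 tile, and without untreated high replicate 1 that of the MSB2 tile was 0.0565. The number of members called was 7 of 199 tiles without untreated high replicate 1, 535 of 3133 without auxin low replicate 1, and 2268 of 20540 without auxin high replicate 2, where the lone sample of a state is assumed to vary like the pair. When either auxin library was left out, the members' share of calls was above that of all tiles, the other way round from the 4 libraries together.

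The members in ribosomal protein genes moved together in these 4 libraries. Their 118 tiles had a median relative coverage of 0.710 and 0.754 untreated and 1.01 and 0.909 with auxin. The median log2 difference was 0.36 (interquartile range 0.25 to 0.46), positive in 116, with both auxin libraries above both untreated ones in 110 (22.5% of all tiles tested) and below in none (23.2% of all tiles tested). It was 0.45 without auxin high replicate 2 and 0.28 without auxin low replicate 1. All tiles of these genes, members or not, had a median of 0.29, so the difference was not confined to the members. The glycolysis and very high transcription list behaved alike: its 52 members had medians of 0.737 and 0.792 untreated and 1.02 and 0.886 with auxin, a median log2 difference of 0.33, and non-overlapping higher values in 39 and lower in 3, beside the same 22.5% and 23.2% of all tiles tested. All tiles of that list had a median of 0.30.

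Members outside both lists (n = 5948) had a smaller median difference of 0.05, with 62.6% above 0. The 16 PAU members had 0.10, the 13 flocculin members 0.06, the 8 COS members 0.09 and the 7 members in meiosis and sporulation genes 0.01. The 3 galactose regulon members, in GAL3 and GAL80, had a median of 0.33 with non-overlapping higher values in all 3 (22.5% of all tiles tested). Of the PAU members, 3 had non-overlapping higher and 4 non-overlapping lower values. In a split made after the values were seen, the 1036 members in runs of at least 5 had a median of 0.10 (73.5% above 0) and the 1694 single members 0.01 (52.4% above 0).

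At long fragment length only single libraries could be set side by side. The library labelled auxin high replicate 1 and the untreated low replicate 1 library had near-equal mean fragment lengths of 150.1 and 149.8 bp. The log2 ratio of the first over the second had a median of 0.34 in the members and 0.04 in the other ORF tiles. It was at least 0.5 in 1967 members (32.2%, against 8.3% of all tiles) and -0.5 or less in 7 (against 1.38%). Members of the ribosomal protein list had a median ratio of 0.64, those of the glycolysis list 0.60, and the PAU members -0.13.

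The third long-fragment library, labelled untreated high replicate 2 but named as auxin at the low dose, had member values close to those of the auxin library. Its median log2 ratio over untreated low replicate 1 was 0.30, and that of auxin high replicate 1 over it was 0.05, with 57.5% of the members above 0. Its fragments were the longest of the 7, at 162.2 bp, although its member median of 0.514 was above the 0.401 of untreated low replicate 1. Fragment length and coverage of the members did not rank the 3 libraries in the same order. Whether that library is untreated cannot be settled from these values.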

How the data were processed

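The 11 deposited files, 1 per library and not pooled, hold whole-number fragment coverage per base, a signal that the authors left unnormalised, for 16 nuclear chromosomes and the mitochondrial genome. Reads were aligned with Bowtie2 to sacCer3, per the submitters' processing notes. Fragments of 95 to 225 bp were kept, per the file headers, so fragments longer than that are not seen. The handling of duplicates is not given in the sources used here, so depth and tests may include PCR copies.

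Coverage was divided by each library's nuclear mean without the ribosomal DNA (XII:450786-490469, with 1000 bp either side) and averaged over 200 bp tiles. It has no absolute scale. Genes came from the RefSeq R64 table, with strand read from systematic names and a tile assigned by its centre. Mean fragment length is nuclear coverage over nuclear fragments, and the 4 OsTIR1 libraries of 129.0 to 132.4 bp are called short-fragment.

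Differences were tested with limma 3.58.1 (lmFit, eBayes, two-sided) in R 4.3.3 on log2(relative coverage + 0.1), over tiles with a mean of at least 0.1, with Benjamini-Hochberg adjustment over all tiles tested. The script was tested on simulated data. Python 3.11.15 was used for the rest. The alternatives were pseudocounts of 0.01 and 1, no filter or a minimum of 0.5, shifted tiles, scaling by the median tile, limma with trend and robust, a replicate block, other digestion terms and each library left out. Named genes are those of the 10 lowest tiles, the longest runs, the ORFs with most members, the called members, the tiles nearest the threshold, and list genes with at least 50% members (PAU genes as a count; 1 gene is not reported here). Other list genes were named after their values were seen. The members, lists and tests were chosen with earlier results of these data known. No sequence is shown, as no genome was used here.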

Additional observations from a re-analysis of the deposited data

How the results depend on the processing

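The number of member tiles was 9303 with a pseudocount of 0.01, 0 with a pseudocount of 1 and 2610 with scaling by the median tile. Tiles shifted by 100 bp gave 6145, and 1 replicate alone gave 5747 to 7361. The dose and auxin comparisons by labels called 0 tiles and 0 members under every alternative run (14 and 18), with member medians of -0.39 to 0.13 and 0.06 to 0.49 when each library was left out. The auxin member median was 0.14 without the library whose state is disputed, 0.08 with fragment length as the digestion term and that library left out, and 0.18 over all 11 libraries.

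In the 4 short-fragment libraries the auxin counts depended on the setting. With a pseudocount of 0.01 they were 224 tiles and 11 members, with a pseudocount of 1 they were 0 and 0, without a filter 71 and 0, with a minimum of 0.5 they were 0 and 0, and with trend and robust 14 and 0. Scaling by the median tile gave 132 tiles and 6 members. Leaving out each library gave 118 to 20540 tiles and 4 to 2268 members. The cause was not tested. The member median stayed between 0.03 and 0.08 when each library was left out. The medians of the ribosomal protein and glycolysis members were 0.18 and 0.17 with a pseudocount of 1, and 0.28 to 0.45 and 0.22 to 0.43 when each library was left out. The RPL2B tile remained called without any 1 of the 4 libraries. It was not called with a pseudocount of 1, without a filter, with the minimum of 0.5, or with trend and robust, and neither were the RPS13 and MSB2 tiles.

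The labels do not say that replicate numbers mark paired libraries. The deviations of same-numbered short-fragment libraries from their group means had a correlation of -0.09. With 2 libraries a state both pairs must give the same value, so it cannot decide whether they are paired. The replicate block gave 1193 of 59819 tiles and 193 of 6118 members (190 higher) in the short-fragment libraries, so the members' share was then above that of all tiles. It gave 0 in both comparisons by labels, where the member medians were -0.14 for dose and 0.31 for auxin.

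The fragment filter and the lack of an absolute scale limit all values. The 50.1 fragments over the median member in the shallowest case were in low-dose replicate 2 without OsTIR1, a library used to choose the tiles. The median member had 230 to 338 fragments in the 4 short-fragment OsTIR1 libraries and 70.2 to 120 in the 3 long-fragment ones. Differences of single tiles, above all between long-fragment libraries, therefore rest on few fragments.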
